A study of Homo sapiens with 2 samples.

Results

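The grainyhead and CP2 transcription factors form 1 family of 6 human genes, TFCP2L1, TFCP2, UBP1, GRHL1, GRHL2 and GRHL3. The 6 were taken by gene name from 58302 listed genes, and the family column of the files places all 6 under CP2. The family was chosen by name with the measured ratio of TFCP2L1 already known, so the values of TFCP2L1 are a description and support nothing. RNA-seq covered A549, a human cell line derived from a lung adenocarcinoma and grown in F12K medium with serum, in 1 library labelled as overexpressing PGC-1α and 1 library labelled as its control. PGC-1α, encoded by PPARGC1A, is a transcriptional coactivator known for raising mitochondrial genes, and the comparison asks which genes differ when it is raised. The labels give no construct, no time after gene transfer and no statement on clones or pools. With 1 library per group there is no replicate check and no test, and the 95% intervals below cover counting error only.

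Members of this family bind DNA as dimers or larger assemblies through related domains, and they fall into separate branches. The grainyhead branch, GRHL1 to GRHL3, is known for epithelial adhesion and barrier genes, and GRHL2 is known to keep E-cadherin and claudin genes active in lung and other epithelia. In the CP2 branch, TFCP2 (also called LSF) and UBP1 (also called LBP-1a) are widely expressed. TFCP2L1 is known from the distal nephron and collecting duct of the kidney and, in mouse, from the circuit that holds embryonic stem cells in a naive state.

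The PGC-1α library held 24334768 counts and the control 27125084. PPARGC1A had 4654 counts in the PGC-1α library and 5 in the control, which matched the group labels. Keratin genes of simple epithelium were abundant, with KRT8 at 3899 CPM (counts scaled to library size) in the PGC-1α library and 3868 CPM in the control. Of 6 marker genes of the line, keratin genes together with AKR1B10 and AKR1C1, all were measured and 2 had a ratio above 0. KRT7 at a log2 ratio of 0.33 was the highest, and KRT19 at a log2 ratio of -1.13, AKR1C1 at -0.72 and AKR1B10 at -0.60 were lower in the PGC-1α library. Of 5 fibroblast markers, 1 reached a mean of 1 CPM, and the list summed to 3.14 CPM in the PGC-1α library and 2.93 CPM in the control. Of 5 immune and 4 endothelial markers none reached it, and CD3E, CDH5 and KDR were at 0 in both. Transcripts of the mitochondrial genome took 8.32% of the PGC-1α library and 6.22% of the control.

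TFCP2L1 was the member that differed most (ENSG00000115112, chromosome 2, 121216587 to 121285207, minus strand, GRCh38). It had 668 counts in the PGC-1α library and 129 in the control. Scaled to library size this was 27.6 CPM in the PGC-1α library and 4.73 CPM in the control. The PGC-1α library was thus 5.82-fold higher, a log2 ratio of CPM of 2.54 (2.27 to 2.83). The nearest measured genes on either side of it lay close to 0. GLI2, a Hedgehog pathway factor 224 kb away, had a log2 ratio of 0.10 (-0.01 to 0.21), and CLASP1, a microtubule-binding protein gene 52.6 kb away, of -0.09 (-0.19 to 0.0022). No listed gene overlapped TFCP2L1, and none of the 9322 stretches of 50 bases in its GENCODE 29 transcripts occurred in a transcript of another gene.

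The sequences before the annotated starts of TFCP2L1 and GRHL3, the members with the highest and the lowest ratio, are shown because these genes differed in opposite directions. Both are RefSeq sequences of GRCh38.p14, cut to the bases that precede the gene start in the files, and capitals mark the E-box CAGGTG or its complement CACCTG, a site bound by ZEB and SNAI repressors. The TFCP2L1 stretch lies at chr2:121285208-121285452 on the minus strand and holds 2 such sites. The GRHL3 stretch lies at chr1:24319107-24319321 on the plus strand and holds 0, but 2 such sites lie past this cut. The full TFCP2L1 window and the full upstream GRHL3 window, read below, hold 2 each.
TFCP2L1: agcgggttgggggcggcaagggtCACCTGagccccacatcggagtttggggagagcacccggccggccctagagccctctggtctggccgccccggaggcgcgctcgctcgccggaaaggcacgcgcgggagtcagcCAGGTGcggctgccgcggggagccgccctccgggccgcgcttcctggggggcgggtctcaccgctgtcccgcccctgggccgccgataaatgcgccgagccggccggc
GRHL3: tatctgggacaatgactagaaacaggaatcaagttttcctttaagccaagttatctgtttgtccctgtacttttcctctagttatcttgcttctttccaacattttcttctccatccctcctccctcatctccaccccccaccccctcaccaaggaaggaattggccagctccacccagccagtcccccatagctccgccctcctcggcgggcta

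Motifs were looked for on both strands of windows running from 250 bases before to 50 bases after each RefSeq start, in 6 windows of TFCP2L1, TFCP2, UBP1, GRHL1 and GRHL3, of which GRHL3 has 2. The base composition differed, with 77.3% G and C in the TFCP2L1 window and 53.0% in the upstream GRHL3 window. CAGGTG was in 2 of the 6 windows and in 20.6% of 35116 promoter windows. It began at positions -227 and -113 of TFCP2L1 and at positions -21 and 9 of the upstream GRHL3 window, the last 2 outside the stretch printed above. The grainyhead site AACCGGTT was in none of the 6 windows and in 0.134% of all windows. TNAAGGTCA, the site of the estrogen-related receptors that PGC-1α is known to coactivate, was in none of the 6 and in 0.951% of all. The CP2 layout of CNNG and CNNG set 6 bases apart, which reads alike on both strands, was in all 6 windows, but it was also in 74.0% of all windows. These matches describe letters in a window and do not show binding.

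The other CP2 members were abundant and nearly level between the libraries. TFCP2 (ENSG00000135457, chromosome 12, 51093663 to 51173134) had 1173 counts in the PGC-1α library and 1179 in the control. After scaling this gave 48.5 CPM in the PGC-1α library and 43.2 CPM in the control, a log2 ratio of 0.16 (0.05 to 0.28). UBP1 (ENSG00000153560, chromosome 3, 33388336 to 33441371) had 2365 counts in the PGC-1α library and 2414 in the control. Its scaled values were 97.7 CPM in the PGC-1α library and 88.5 CPM in the control, a log2 ratio of 0.14 (0.06 to 0.22). Neither came near the 1.5-fold mark that is used for gene lists below. Their neighbours lay in the same range, with CSRNP2 and POU6F1 beside TFCP2 both at a log2 ratio of 0.14, and SUSD5 and CLASP2 beside UBP1 at 0.05 and 0.16. FBXL2, an F-box protein gene that overlaps UBP1 on the opposite strand, had a log2 ratio of -0.51, but its GENCODE 29 exons share 0 bases with those of UBP1.

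**Figure D1:**
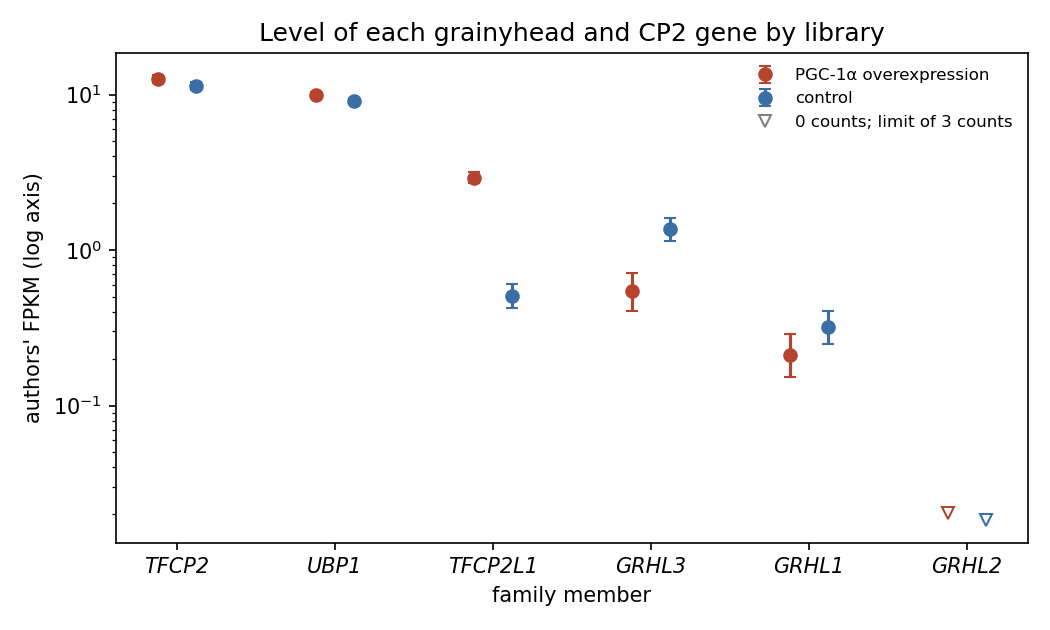
Authors' FPKM of each family member on a log axis, with 95% Poisson intervals for counting error, in the PGC-1α overexpression library and the control. TFCP2L1 lies at 2.93 in the PGC-1α library and 0.508 in the control, GRHL3 lies at 0.542 in the PGC-1α library and 1.36 in the control, and GRHL2 had 0 counts in both, drawn at the limit of 3 counts.

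Of the grainyhead branch, GRHL3 was lower in the PGC-1α library, GRHL1 was low in both, and GRHL2 was not detected. GRHL3 (ENSG00000158055, chromosome 1, 24319322 to 24364482), a factor of epidermal barrier formation and neural tube closure in mouse, had 52 counts in the PGC-1α library and 145 in the control. Its scaled values were 2.15 CPM in the PGC-1α library and 5.32 CPM in the control, a log2 ratio of -1.30 (-1.79 to -0.84). Genes around GRHL3 were lower in the PGC-1α library too, as were many genes elsewhere, since 6935 of all 14154 measured genes had ratios above 0. A shared cause was not tested. STPG1, which overlaps it on the opposite strand and was more abundant, had a log2 ratio of -0.61 (-0.88 to -0.36). The exons of STPG1 and GRHL3 share 0 bases in GENCODE 29. The neighbours IFNLR1, the interferon lambda receptor gene, and NIPAL3, a NIPA-like transporter gene, had log2 ratios of -0.83 (-1.28 to -0.41) and -0.23 (-0.43 to -0.04).

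GRHL1 (ENSG00000134317, chromosome 2, 9951693 to 10002277), known from desmosomes of the epidermis in mouse, had 41 counts in the PGC-1α library and 69 in the control. This was 1.69 CPM in the PGC-1α library and 2.53 CPM in the control, a log2 ratio of -0.57 (-1.17 to -0.00071). The ratio was just under 1.5-fold and its interval just missed 0. Its neighbours had ratios of a similar size, -0.43 (-0.83 to -0.04) for AC010969.2 and -0.36 (-0.69 to -0.03) for KLF11, a Krüppel-like factor gene. Of the 50-base stretches in GRHL1 transcripts, 0.967% also occur in transcripts of other genes.

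GRHL2 (ENSG00000083307, chromosome 8, 101492432 to 101669726) had 0 counts in the PGC-1α library and 0 in the control. This count allows a level of up to 0.124 CPM in the PGC-1α library and 0.110 CPM in the control, and for its length up to 0.0203 FPKM in the PGC-1α library and 0.0183 FPKM in the control. The 3 listed genes that overlap it were also at 0 in both. Genes on either side were detected, with ZNF706 at 56.7 CPM in the PGC-1α library and 54.6 CPM in the control, and NCALD, a neuronal calcium sensor gene, at 3.35 CPM in the PGC-1α library and 3.85 CPM in the control.

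**Figure D2:**
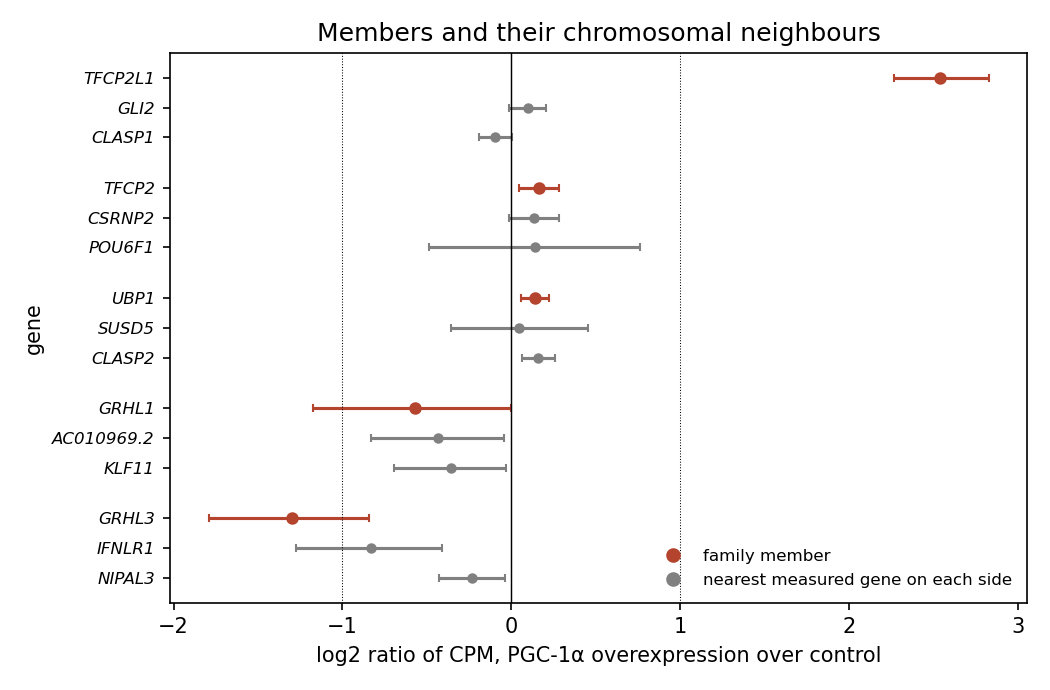
Log2 ratios of CPM, PGC-1α library over control, with 95% intervals for counting error, for the 5 measured members and the nearest measured gene on each side of them. Dotted lines mark 2-fold. TFCP2L1 at 2.54 stands apart from GLI2 at 0.10 and CLASP1 at -0.09, while GRHL1 and GRHL3 and their neighbours all lie below 0. Of all 14154 measured genes, 6935 lie above 0.

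Per length, in the authors' FPKM, which divide the counts by gene length and library size, the CP2 branch held most of the family's transcripts. TFCP2 stood at 12.6 FPKM in the PGC-1α library (11.9 to 13.3) and 11.4 FPKM in the control (10.7 to 12.04). UBP1 stood at 9.94 FPKM in the PGC-1α library (9.55 to 10.4) and 9.13 FPKM in the control (8.77 to 9.50). UBP1 had more counts than TFCP2 but the lower level, because its listed length of 9760 bases exceeds the 3827 of TFCP2. Both lengths sum all annotated exons of the gene. Which transcripts were present was not tested, so the order of TFCP2 and UBP1 holds for these lengths only. TFCP2L1 stood at 2.93 FPKM in the PGC-1α library (2.71 to 3.16) and 0.508 FPKM in the control (0.424 to 0.604). GRHL3 stood at 0.542 FPKM in the PGC-1α library (0.405 to 0.710) and 1.36 FPKM in the control (1.15 to 1.60). GRHL1 stood at 0.212 FPKM in the PGC-1α library (0.152 to 0.287) and 0.320 FPKM in the control (0.249 to 0.405). Within each library the intervals of neighbours in this order did not overlap, and TFCP2L1 and GRHL3 traded places between the libraries. In the control TFCP2L1 had 129 counts and GRHL3 145. The gap between their intervals there thus rests on their listed lengths of 9372 and 3940 bases. TFCP2L1 was 5.40 times GRHL3 in the PGC-1α library and 0.374 times GRHL3 in the control.

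The make-up of the family changed with these members. TFCP2L1 supplied 11.2% of the family's summed FPKM in the PGC-1α library and 2.24% in the control, and GRHL3 supplied 2.07% in the PGC-1α library and 5.99% in the control. TFCP2 exceeded TFCP2L1 by 4.30 times in the PGC-1α library and by 22.4 times in the control. The CP2 branch summed to 25.4 FPKM in the PGC-1α library and 21.0 FPKM in the control, and TFCP2L1 made up 54.5% of that difference. The grainyhead branch summed to 0.753 FPKM in the PGC-1α library and 1.68 FPKM in the control, and GRHL3 made up 88.3% of that difference. In bulk RNA, a change in every cell and a change in part of the cells cannot be told apart.

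Calls were made for the 14154 genes that averaged 1 CPM or more over the libraries. A call needed a difference of 2-fold or more and an interval that left out a ratio of 1. By this rule 1.75% of the genes were called higher in the PGC-1α library and 1.16% were called lower. Of the 5 members measured, TFCP2L1 was called higher, GRHL3 was called lower and the other 3 were neither. TFCP2L1 ranked 22 from the top among all measured genes, and GRHL3 ranked 75 from the bottom.

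The files name a transcription factor family for 1553 genes, of which 1031 were measured. This set was examined after the values of the members were known. Among these factors 1.26% were called higher and 0.873% lower, and their median log2 ratio was -0.01. TFCP2L1 had the highest ratio of the 1031, followed by the zinc finger gene ZNF44 at 2.19 and the homeobox gene HOXD9 at 1.78. ZNF44 rested on 54 counts in the PGC-1α library and 13 in the control, far fewer than TFCP2L1. GRHL3 had the 7th lowest ratio; the lowest were SPDEF, a factor of secretory cells, at -2.30 and the immediate-early gene EGR1 at -2.06. TFCP2 and UBP1 lay at percentiles 76.3 and 73.4. By FPKM, TFCP2L1 ranked 475 among all 1553 factors in the PGC-1α library and 948 in the control, and TFCP2 ranked 119 in the PGC-1α library and 143 in the control.

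**Figure D3:**
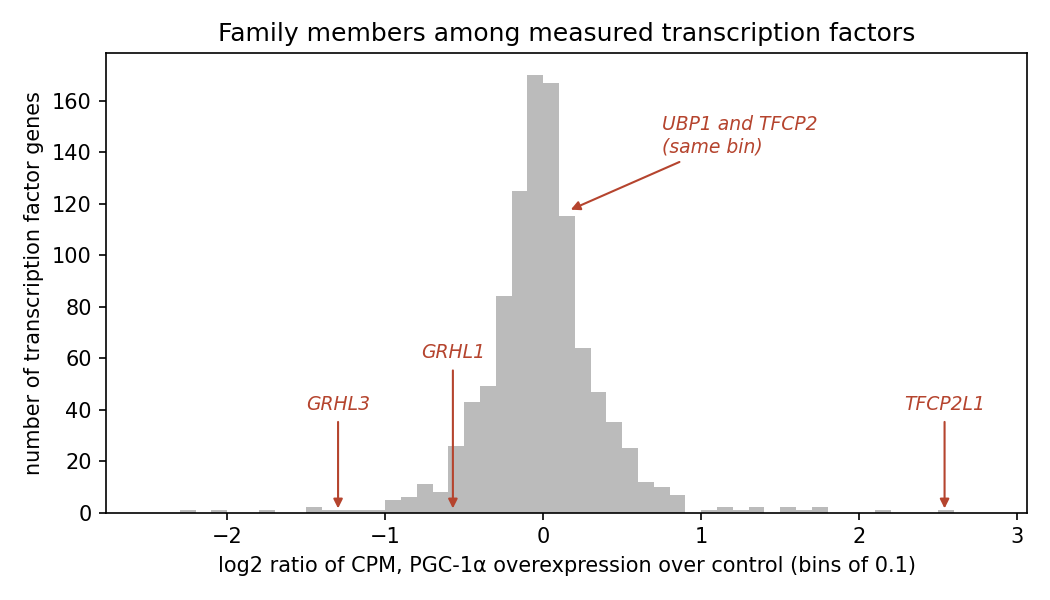
Number of measured transcription factor genes by log2 ratio of CPM, PGC-1α library over control, in bins of 0.1, with the 5 measured family members marked. TFCP2L1 lies at the upper end at 2.54 and GRHL3 in the lower tail at -1.30, while UBP1 and TFCP2 fall in the bin just above 0.1.

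The pattern most like that of TFCP2L1 was sought among 3881 measured protein-coding genes with a mean CPM within 2-fold of its own, by the smallest difference in log2 ratio over the 2 libraries. The 5 closest were METRNL, CA2, NDRG2, NXPH4 and FAM129A. METRNL, which encodes a secreted meteorin-like protein, had 696 counts in the PGC-1α library and 135 in the control, a log2 ratio of 2.53. CA2, which encodes carbonic anhydrase II, had 416 counts in the PGC-1α library and 83 in the control, a log2 ratio of 2.49 (2.15 to 2.86). NDRG2 stood at 2.40 and the neurexophilin gene NXPH4 at 2.11, and FAM129A had 436 counts in the PGC-1α library and 114 in the control. These genes were chosen for their ratios, which are therefore a description.

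Genes around the family were read from 6 lists holding 101 genes, of which 60 were measured. For lists, the threshold was 1.5-fold with an interval excluding 1, which 5.3% of all measured genes passed as higher and 3.92% as lower. Over the 6 lists 2 genes passed as higher and 10 as lower, and the median log2 ratio was -0.07 against -0.0054 for all measured genes. Several genes belong to more than 1 list, among them KLF4, KLF5 and FN1.

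Collecting duct genes were listed because TFCP2L1 is known from that tissue. Of 21 listed, 8 were measured, 2 passed as higher and 2 as lower, with a median log2 ratio of 0.02. The sign of this median changed with the filter on low counts and with the scaling, to -0.31 at a mean of 5 CPM and -0.0027 with DESeq2 size factors. CA2, the carbonic anhydrase gene named above for its likeness, was the highest of them. ATP6V1B1, a subunit of the proton pump, had 80 counts in the PGC-1α library and 58 in the control, a log2 ratio of 0.63 (0.13 to 1.15). Among the lower genes, AQP3, a water channel, stood at 4.05 CPM in the PGC-1α library and 10.4 CPM in the control, a log2 ratio of -1.35 (-1.70 to -1.02). SCNN1A, the alpha subunit of the epithelial sodium channel, stood at 3.92 CPM in the PGC-1α library and 8.03 CPM in the control, a log2 ratio of -1.03 (-1.40 to -0.68). SCNN1A shares 7.18% of its exon bases with the more abundant LTBR on the chromosome, which leaves its counts uncertain. Without a low-count filter, or without genes of the mitochondrial genome, 3 genes of this list passed as higher and 2 as lower. At a mean of 5 CPM, 1 passed as higher and 2 as lower. HSD11B2, which encodes a cortisol-inactivating enzyme and was named after its values were seen, fell just under a mean of 1 CPM. It had 31 counts in the PGC-1α library and 17 in the control, a log2 ratio of 1.02 (0.14 to 1.98). Of the rest, 4 genes were at 0 in both libraries, among them FOXI1, the intercalated cell factor, named after its values were seen.

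Naive pluripotency partners of TFCP2L1, known from mouse and human stem cells, included 5 that were lower in the PGC-1α library. Of 22 listed, 14 were measured, none passed as higher and 5 as lower, with a median log2 ratio of -0.22. Among all measured genes 5.3% passed as higher and 3.92% as lower. SOX2 had 83 counts in the PGC-1α library and 178 in the control, a log2 ratio of -0.92 (-1.32 to -0.54). KLF2 stood at -0.86, the nuclear receptor genes NR5A2 and NR0B1 at -0.73 and -0.64, and SOCS3, a feedback inhibitor of STAT3 signalling, at -0.63. Of the 14 measured, 5 had ratios above 0 and did not pass, and the members that follow were named after their values were seen. TBX3 stood at 0.20 (0.07 to 0.34), LIFR at 0.22 (0.08 to 0.37) and KLF4 at 0.20 (-0.06 to 0.46). Other stem cell factors ranged from level to undetected. POU5F1 had 63 counts in the PGC-1α library and 68 in the control, and SALL4 had 109 in the PGC-1α library and 120 in the control. ESRRB had 10 counts and NANOG 1 count in each library, and PRDM14 had 0 in both. The median of this list depended on the low genes and lay between -0.38 and -0.02 under other filters and scales.

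Among epithelial targets of grainyhead factors, the E-cadherin gene had the lowest ratio of those measured. Of 24 listed, 12 were measured, none passed as higher and 2 as lower, with a median log2 ratio of -0.14. CDH1, the E-cadherin gene, stood at 24.8 CPM in the PGC-1α library and 48.0 CPM in the control, a log2 ratio of -0.95 (-1.09 to -0.81). Of the keratins among the markers of the line, KRT19 was lower as well at -1.13. The others did not follow it, with KRT7 at 0.33, KRT8 at 0.01 and KRT18 at -0.09. Their part in this result was not tested. CLDN4, a tight junction claudin gene, had 47 counts in the PGC-1α library and 90 in the control, a log2 ratio of -0.76 (-1.31 to -0.24). Of those measured, 5 had ratios above 0 and did not pass, and the members that follow were named after their values were seen. DSP of the desmosome, at 220 CPM in the PGC-1α library and 148 CPM in the control, stood at 0.57 (0.51 to 0.63). The adhesion gene EPCAM stood at 0.58 (0.17 to 0.99). Both were just under 1.5-fold, with intervals above 0. The nectin gene NECTIN4 stood at 0.71 (-0.04 to 1.498). The median of this list was -0.02 without a filter and 0.0038 with FPKM and a pseudocount of 1. RAB25 had 3 counts in the PGC-1α library and 0 in the control, ESRP1 had 1 in the PGC-1α library and 2 in the control, and OVOL1 had 0 in both.

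Of 14 epithelial transcription factors, 10 were measured and none passed in either direction, with a median log2 ratio of -0.17. The most abundant were ELF3 at -0.31, KLF5 at -0.45 and TFAP2A at -0.03. Of 9 mesenchymal genes and factors of epithelial-mesenchymal transition (EMT), all were measured, none passed as higher and 1 as lower, with a median of 0.19. ZEB2, a repressor of CDH1, had 127 counts in the PGC-1α library and 282 in the control, a log2 ratio of -0.98 (-1.29 to -0.67). Other EMT factors in the list, named after their values were seen, went both ways. ZEB1 stood at 0.22 (0.05 to 0.39), SNAI1 at 0.38 (0.14 to 0.62) and TWIST1 at 0.19 (-0.24 to 0.61). TWIST2 stood at -0.43 (-0.72 to -0.15) and SNAI2 at -0.11 (-0.91 to 0.66). Partners and reported targets of TFCP2 and UBP1 were level: of 16 listed, 10 were measured and none passed, with a median of 0.01. The most abundant were FN1 at 0.25, SPP1 at 0.27 and HDAC1 at 0.01.

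**Figure D4:**
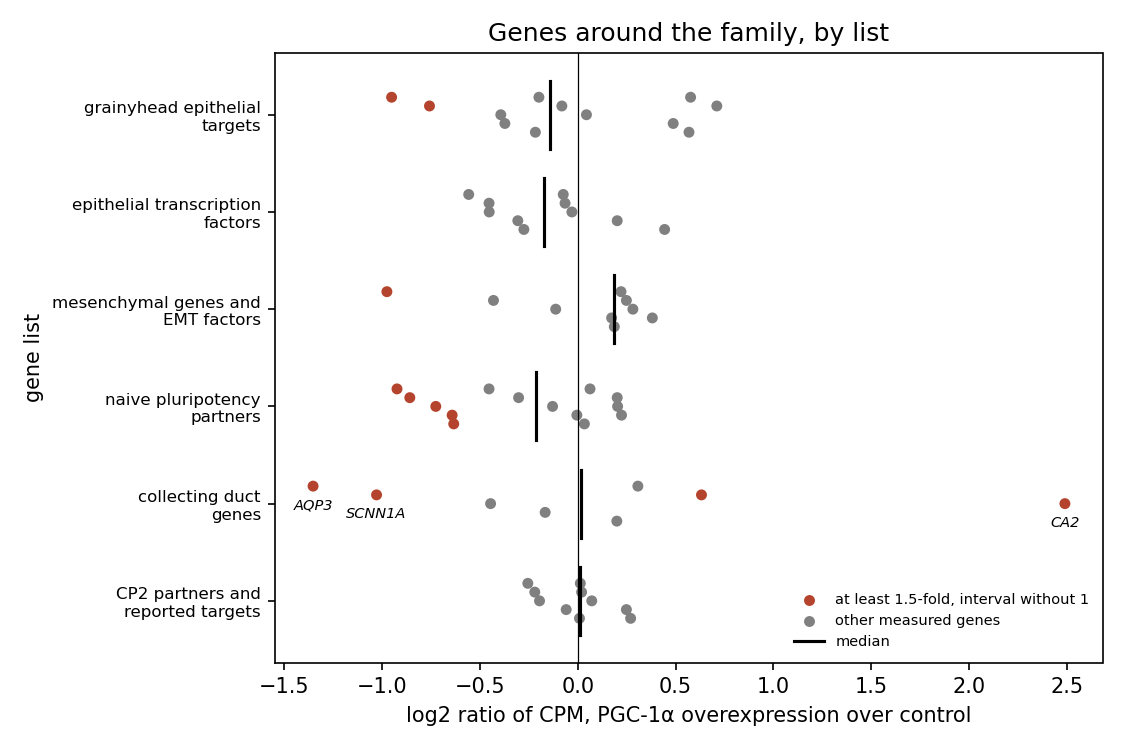
Log2 ratios of CPM, PGC-1α library over control, of the measured genes in 6 lists around the family, with each list's median as a bar and genes past 1.5-fold in red. CA2 at 2.49 lies far above the other listed genes, and AQP3 at -1.35 and SCNN1A at -1.03 are lowest.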

How the data were processed

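RNA-seq of A549 cells was deposited as 1 library per group. Per the file headers the authors deposited a raw count for each gene, and a second table holds the authors' FPKM. Per the submitters' processing notes, which give no roles, the tools included Cuffdiff 2.1.1, Cufflinks 2.1.1, TopHat2 2.0.9 and Bowtie2 2.0.6. How counts were made, and with which strand setting, build and annotation, is not given in the sources used here. Gene coordinates were equal to GENCODE 29 on GRCh38 for 97.6% of 58039 shared identifiers and for all 6 members, whose listed lengths equalled the summed exon bases. The FPKM were the same counts divided by length and by library sizes of 24367036 for the PGC-1α library and 27089164 for the control, so they are no second measurement. 0 columns belonged to other samples.

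CPM used TMM-normalised library sizes from edgeR 4.0.16 in R 4.3.3, with factors of 0.995 for the PGC-1α library and 1.01 for the control. Log2 ratios had 0.5 added to each count. Intervals are exact Clopper-Pearson 95% intervals of the split of the 2 counts, and those of FPKM are exact Poisson intervals. A count of 0 was taken to allow 3 counts. Without molecular identifiers, reads can be copies of 1 molecule, so both cover counting error only. Without replicates edgeR's quasi-likelihood model could not be fitted, so the text holds no p-values. The calculation was tested on simulated Poisson counts, with the changed genes at a mean of at least 5 CPM. These counts held no variation between libraries. The test therefore says nothing on that variation or on lower genes such as GRHL1 and GRHL3. Alternatives used DESeq2 1.42.0 size factors, other filters and the FPKM. Python 3.11.15 was used, with scipy 1.17.1 for intervals, pandas 2.3.3 and numpy 2.4.6 for tables and matplotlib 3.10.9 for plots.

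The members and lists were chosen with earlier results of these data known. Named were all members, their nearest measured neighbours and overlapping genes, up to 8 genes per list past 1.5-fold or else the most abundant, and the 5 genes most like TFCP2L1; other names are marked as chosen after their values were seen. A symbol with several identifiers was read from the one with most counts.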

Additional observations from a re-analysis of the deposited data

How the results depend on the processing

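The signs of all 5 measured members held under every alternative that measured them. TFCP2L1 ranged from 1.38 to 2.54 on the log2 scale, GRHL3 from -1.32 to -0.61, GRHL1 from -0.59 to -0.12, TFCP2 from 0.13 to 0.17 and UBP1 from 0.11 to 0.14. The values outside the counting intervals were those with the authors' FPKM and a pseudocount of 1, at 1.38 for TFCP2L1 and -0.61 for GRHL3, since that pseudocount is close to or above their levels. A mean of at least 5 CPM leaves out GRHL1 and GRHL3, and a mean FPKM of at least 0.5 leaves out GRHL1. The counts of genes called higher and lower moved from 248 and 164 to 789 and 486 without a low-count filter and to 104 and 53 when a mean of 5 CPM was asked for. By fold alone on the FPKM with a pseudocount of 0.1 they were 1984 and 1706, or 422 and 348 with a mean FPKM of at least 0.5. TFCP2L1 ranked 1 among transcription factors under all alternatives except without a filter, where it ranked 21; GRHL3 then ranked 56 from the bottom, and 15 with a pseudocount of 1. The median of the grainyhead targets ranged from -0.22 to 0.0038, changing sign with the FPKM and a pseudocount of 1, that of the naive pluripotency list from -0.38 to -0.02 and that of the epithelial factors from -0.29 to -0.06. The median of the collecting duct list lay between -0.31 at 5 CPM and 0.31 without a filter, and the near-zero median of the TFCP2 and UBP1 partners was -0.0083 with DESeq2 scaling. As a share of counts rather than per length, TFCP2L1 held 15.5% of the family in the PGC-1α library and 3.28% in the control, and UBP1 exceeded TFCP2. Of 140 alternative values of the 16 genes that passed 1.5-fold in a list or were most like TFCP2L1, 8 left the counting interval and 0 changed sign. A filter leaves a gene's own ratio as it is, and the FPKM are the same counts. The alternatives for these genes and for the members are therefore not independent checks. No paired analysis was possible because each group has 1 library, and no library could be left out.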
